A study of Rattus norvegicus with 31 samples.

Results

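Ces1d, Ces1c, Adh1c, Ephx1 and Gstm2 encode esterases and detoxification enzymes, and their transcripts were followed in testes of irradiated rats under 3 hormonal treatments. These 5 genes, of 14217 with a probe set of exactly 1 gene symbol, were chosen by name because of how their signals differed between treatments in these same arrays. Their probe sets were found by symbol in the platform annotation, older symbols included (Ces3 for Ces1d and Adh1 for Adh1c), and the probe set with the highest mean over all arrays stands for the gene. Of 7 such probe sets 6 passed the filter on dim signals, and each of the 5 genes kept its main one. The main probe sets were 1370363_at for Ces1d, 1371100_at for Ces1c, 1368021_at for Adh1c, 1387669_a_at for Ephx1 and 1370952_at for Gstm2.

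All rats were LBNF1, an F1 hybrid of the Lewis and Brown Norway strains, aged 25 to 27 weeks, and all had received 6 Gy of radiation to the lower abdomen. Total RNA of testes was hybridised to 31 Affymetrix rat genome arrays, each labelled a biological replicate. In 6 arrays the rats had hormonal ablation plus estradiol, in 11 arrays hormonal ablation alone, and in 14 arrays sham treatment. Hormonal ablation combined a GnRH antagonist, which shuts off gonadotropin release from the pituitary, with flutamide, an androgen receptor antagonist. The labels of the estradiol arrays also speak of FSH supplementation while listing estradiol as the added compound. The description field calls 10 of the sham testes control and 4 irradiated, although the treatment given is the same for all. An arm without radiation is not analysed here, so each comparison is within the irradiated testis, which keeps somatic cells and few germ cells. The sham and ablation arrays came from an earlier deposit, so the estradiol treatment and the newer deposit cannot be told apart in any comparison with the estradiol arrays.

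Leydig cells lie between the seminiferous tubules, make testosterone from cholesterol when luteinising hormone binds its receptor, and are rich in smooth endoplasmic reticulum. Carboxylesterases split ester bonds in lipids and drugs. Ces1d, also known as triacylglycerol hydrolase, sits in the endoplasmic reticulum, and Ces1c is an esterase that rodent liver secretes into plasma. Class I alcohol dehydrogenase, encoded by Adh1c, oxidises ethanol and retinol, the microsomal epoxide hydrolase Ephx1 turns reactive epoxides into diols, and Gstm2 is a mu class transferase that joins glutathione to electrophiles.

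The 2 carboxylesterase genes are neighbours. In the RefSeq annotation of the rat assembly GRCr8, Ces1d lies at chr19:30046494-30085039 and Ces1c at chr19:30099383-30128531, with 14343 bases between them. Adh1c lies at chr2:229470703-229482291, Gstm2 on the same chromosome at chr2:198312179-198316962, and Ephx1 at chr13:95246079-95275852. The promoter windows of the esterase pair, whose signals were lower in the first group of each comparison, and of Ephx1, which differed from them under estradiol, are shown here 5′ to 3′ as RefSeq gives them on GRCr8. Each covers 250 bases before and 50 bases after an annotated start. In a global alignment of the first pair, 201 of 300 bases (67%) were identical, and capitals mark the runs of at least 10 identical bases in it. Stretches that both windows hold but that were not aligned in full stay in lower case, some of them longer than these runs. In the Ephx1 windows capitals mark the motifs named below.
Ces1d, chr19:30046244-30046543, plus strand: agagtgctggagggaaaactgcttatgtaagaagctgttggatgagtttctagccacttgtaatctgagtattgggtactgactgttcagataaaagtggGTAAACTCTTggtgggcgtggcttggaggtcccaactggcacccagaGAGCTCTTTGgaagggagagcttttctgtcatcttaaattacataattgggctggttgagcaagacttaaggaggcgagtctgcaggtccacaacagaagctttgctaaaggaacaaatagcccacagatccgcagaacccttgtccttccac
Ces1c, chr19:30099197-30099496, plus strand: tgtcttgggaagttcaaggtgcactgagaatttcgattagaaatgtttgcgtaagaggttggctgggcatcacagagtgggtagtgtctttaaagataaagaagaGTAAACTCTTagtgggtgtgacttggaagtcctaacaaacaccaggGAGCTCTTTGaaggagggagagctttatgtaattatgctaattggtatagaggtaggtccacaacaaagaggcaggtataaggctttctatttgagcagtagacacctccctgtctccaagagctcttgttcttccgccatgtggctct
Ephx1 window 1, chr13:95275803-95276102, minus strand: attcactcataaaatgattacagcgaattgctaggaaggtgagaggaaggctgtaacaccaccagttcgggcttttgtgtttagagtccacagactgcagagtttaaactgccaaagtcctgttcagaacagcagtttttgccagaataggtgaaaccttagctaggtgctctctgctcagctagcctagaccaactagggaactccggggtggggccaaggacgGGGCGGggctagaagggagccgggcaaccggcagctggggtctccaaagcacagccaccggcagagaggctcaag
Ephx1 window 2, chr13:95263068-95263367, minus strand: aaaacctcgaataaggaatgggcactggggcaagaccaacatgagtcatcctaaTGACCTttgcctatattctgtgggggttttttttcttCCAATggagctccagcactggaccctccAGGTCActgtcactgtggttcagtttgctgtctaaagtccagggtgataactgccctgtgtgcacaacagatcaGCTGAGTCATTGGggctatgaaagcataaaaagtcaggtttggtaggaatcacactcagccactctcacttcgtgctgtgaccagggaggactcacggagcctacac

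Exact matches were searched on both strands of these and the Adh1c and Gstm2 windows, and in all 33469 RefSeq promoter windows of the same length. The second Ephx1 window held 2 copies of AGGTCA, a site that many nuclear receptors bind, which 16.2% of all windows hold. It also held the antioxidant response element TGACNNNGC (12.1% of all windows), on the minus strand and overlapping a CCAAT box in the capitals nearest the start. The CCAAT box, in 37.5% of all windows, was present in all 5 genes, and the GC box GGGCGG (33.1%) in the first Ephx1 window. None of the windows held the SF-1 (Nr5a1) sites CAAGGTCA or CAAGGCCA, the palindromic estrogen and androgen response elements, the cAMP element TGACGTCA or TATAAA. Such matches describe letters in a window only.

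The values are MAS5 signals that the authors placed on a log scale, read here as log2. The median of an array lay between -1.44 and -1.24. A probe set was kept when it exceeded the 40th percentile of its array, called the filter level here (-1.93 to -1.75), in at least 6 arrays, which left 21269. With limma on all 31 arrays and Benjamini-Hochberg adjustment over all kept probe sets, 5.52% were called at an adjusted p under 0.05 for estradiol plus ablation against ablation, 19.4% for ablation against sham and 14.5% for estradiol plus ablation against sham. Among called probe sets, the share called higher was 10.7% for estradiol plus ablation against ablation (24.0% after quantile normalization and 20.1% with array medians subtracted), 47.2% for ablation against sham and 28.5% for estradiol plus ablation against sham (47.2% after quantile normalization and 36.9% with medians subtracted). The medians over all kept probe sets were -0.03, 0.02 and -0.03 in these comparisons. Members get no test in comparisons with sham arrays, because they were chosen on them. The comparison of estradiol plus ablation with ablation was tested for all members but Ces1d, whose value there was known beforehand. It shares the ablation arrays with the contrast the members were chosen on. Low ablation values favour that choice and also raise estradiol plus ablation minus ablation. The members' p-values, intervals and calls there are therefore not independent of the choice. In RNA of whole testes, fewer cells of a type and less RNA per cell cannot be told apart.

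Ces1d had the largest differences of the 5 genes, and it was lower with ablation and lower again with ablation plus estradiol. Its signal was lowest at -0.96, median -0.13 and highest at 0.40 in the estradiol arrays, against 0.73, 1.37 and 1.93 in the ablation arrays and 4.07, 5.15 and 5.57 in the sham arrays (log2). No estradiol array reached an ablation array and no ablation array reached a sham array. The means were -0.18 ± 0.46 in estradiol, 1.31 ± 0.37 in ablation and 5.06 ± 0.41 in sham arrays (SD, n = 6, 11 and 14). Estradiol plus ablation was 2.81-fold below ablation, a log2 difference of -1.49 ± 0.19 (SE). Ablation was 13.5-fold below sham (-3.75 ± 0.15), and estradiol plus ablation 37.9-fold below sham (-5.24 ± 0.18). Among all kept probe sets, 1.35% had every estradiol array below every ablation array, 1.4% every ablation array below every sham array, and 2.15% every estradiol array below every sham array. The 2 lowest sham arrays, replicates 5 and 1 at 4.07 and 4.35, stood at least 2.14 above the highest ablation array.

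Ces1c, the neighbouring esterase gene, differed in the same direction but by less on this scale. Its signal was lowest at -2.79, median -1.67 and highest at -0.87 in the estradiol arrays, against -1.41, -0.64 and -0.43 in the ablation arrays and 0.58, 0.97 and 1.5 in the sham arrays (log2). Ablation and sham arrays did not overlap, while estradiol and ablation arrays did. All 6 estradiol arrays lay below the ablation mean, and 5 of them exceeded the filter level. The means were -1.71 ± 0.63 in estradiol, -0.75 ± 0.30 in ablation and 1.05 ± 0.30 in sham arrays (SD, n = 6, 11 and 14). Ces1c fell 1.94-fold with estradiol plus ablation against ablation, a log2 difference of -0.96 ± 0.18 (SE, 95% interval -1.33 to -0.59). The limma adjusted p was 0.000562 (range over alternatives 7.78e-05 to 0.00684). The choice of members used the same ablation arrays, so this interval and p are not independent of that choice. With each value below the filter level raised to it the difference was -0.81. Ablation was 3.49-fold below sham (-1.80 ± 0.14), and estradiol plus ablation 6.78-fold below sham (-2.76 ± 0.18). A second Ces1c probe set, 1397427_at, stayed below the filter level in all arrays and gave no measurement.

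Adh1c was low in both ablated groups and did not differ detectably between them. Its signal was lowest at 1.42, median 1.75 and highest at 2.00 in the estradiol arrays, against 1.57, 1.84 and 2.10 in the ablation arrays and 4.01, 4.98 and 5.16 in the sham arrays (log2). The estradiol and ablation arrays overlapped over most of their range, and both stood apart from the sham arrays by at least 1.91. The means were 1.74 ± 0.22 in estradiol, 1.82 ± 0.17 in ablation and 4.87 ± 0.31 in sham arrays (SD, n = 6, 11 and 14). Estradiol plus ablation against ablation gave a log2 difference of -0.08 ± 0.13 (SE, limma adjusted p = 0.808), with a 95% interval of -0.34 to 0.18. Ablation was 8.28-fold below sham (-3.05 ± 0.10), and estradiol plus ablation 8.77-fold below sham (-3.13 ± 0.12). The second Adh1c probe set, 1378260_at, averaged -2.73 in estradiol, -2.44 in ablation and -0.38 in sham arrays. It gave differences from sham of -2.06 for ablation and -2.35 for estradiol plus ablation. Only 0 of 6 estradiol arrays and 1 of 11 ablation arrays exceeded the filter level, against 14 of 14 sham arrays. The size of these 2 differences thus rests on values mostly below that level in the ablated groups.

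Ephx1 was the member that rose with estradiol. Its signal was lowest at 2.03, median 2.41 and highest at 2.82 in the estradiol arrays, against 1.07, 1.43 and 1.77 in the ablation arrays and 2.20, 3.03 and 3.67 in the sham arrays (log2). Every estradiol array lay above every ablation array, with a gap of 0.26, and the estradiol and sham arrays overlapped. The means were 2.40 ± 0.27 in estradiol, 1.45 ± 0.20 in ablation and 3.04 ± 0.37 in sham arrays (SD, n = 6, 11 and 14). With estradiol plus ablation Ephx1 was 1.92-fold above ablation, a log2 difference of 0.94 ± 0.15 (SE, 95% interval 0.64 to 1.24). The limma adjusted p was 4.8e-05 (range over alternatives 8.97e-06 to 0.000379). As for Ces1c, this interval and p are not independent of the choice of members. Among all kept probe sets 0.592% were called higher in this comparison, and 0.193% had every estradiol array above every ablation array. Ablation was 3.00-fold below sham (-1.58 ± 0.12), with the groups 0.43 apart, and estradiol plus ablation was 1.56-fold below sham (-0.64 ± 0.14).

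Gstm2 had the smallest differences from sham of the 5 genes, and like Adh1c it differed little between the 2 ablated groups. Its signal was lowest at 4.10, median 4.2 and highest at 4.29 in the estradiol arrays, against 3.94, 4.32 and 4.56 in the ablation arrays and 3.66, 4.57 and 4.86 in the sham arrays (log2). All 3 groups overlapped, and the lowest value of all was a sham array, replicate 7. The means were 4.19 ± 0.10 in estradiol, 4.29 ± 0.18 in ablation and 4.48 ± 0.30 in sham arrays (SD, n = 6, 11 and 14). Estradiol plus ablation against ablation gave a log2 difference of -0.10 ± 0.12 (SE, limma adjusted p = 0.768), with a 95% interval of -0.35 to 0.15. The differences from sham were -0.19 ± 0.10 for ablation and -0.29 ± 0.12 for estradiol plus ablation.

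**Figure D1:**
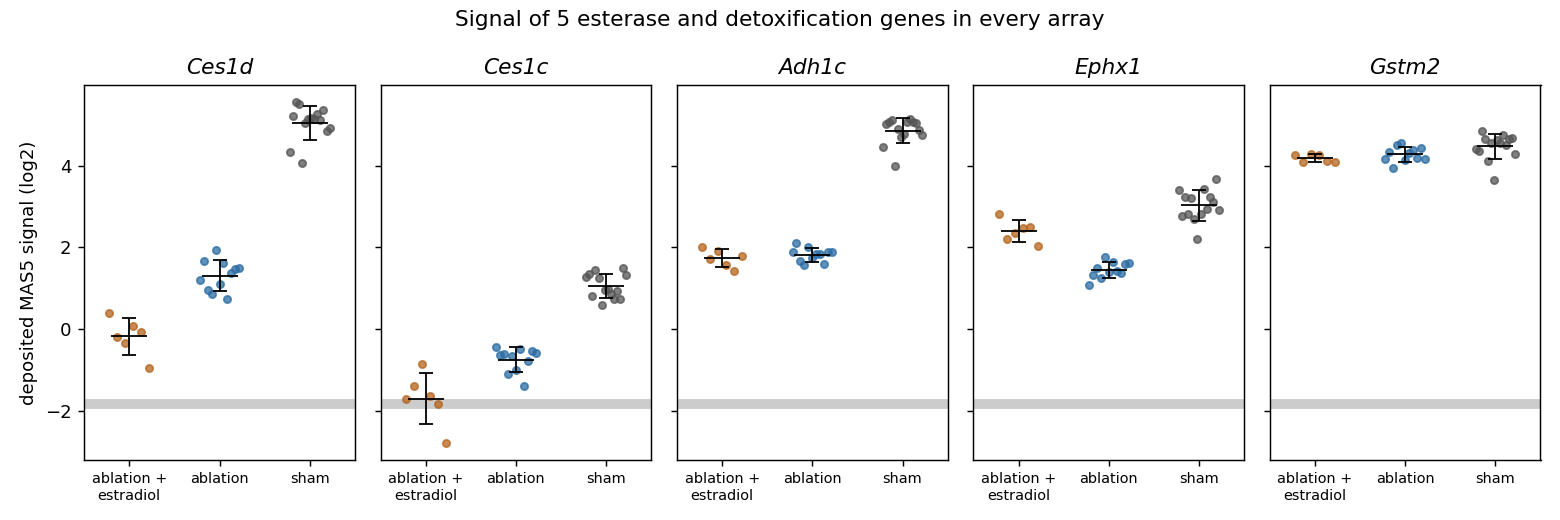
Signal (log2, vertical axis) of the main probe set of each gene in every array of the estradiol plus ablation, ablation and sham groups. Points are arrays, the black marks are the group mean ± SD, and the grey band is the filter level of the arrays (-1.93 to -1.75). Ces1d, Ces1c, Adh1c and Ephx1 show ablation arrays below all sham arrays, as 1.4% of all kept probe sets do, in the contrast the members were chosen on. All estradiol arrays lie below all ablation arrays for Ces1d (1.35% of kept probe sets) and above them for Ephx1 (0.193%). Gstm2 overlaps throughout.

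In the comparison of estradiol plus ablation with ablation, 1 of the 4 tested members was called higher (Ephx1) and 1 lower (Ces1c), beside 0.592% and 4.92% of all kept probe sets. These calls share the ablation arrays with the choice of members and are not independent of it. The plot of group differences sets the 3 comparisons of each gene side by side.

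**Figure D2:**
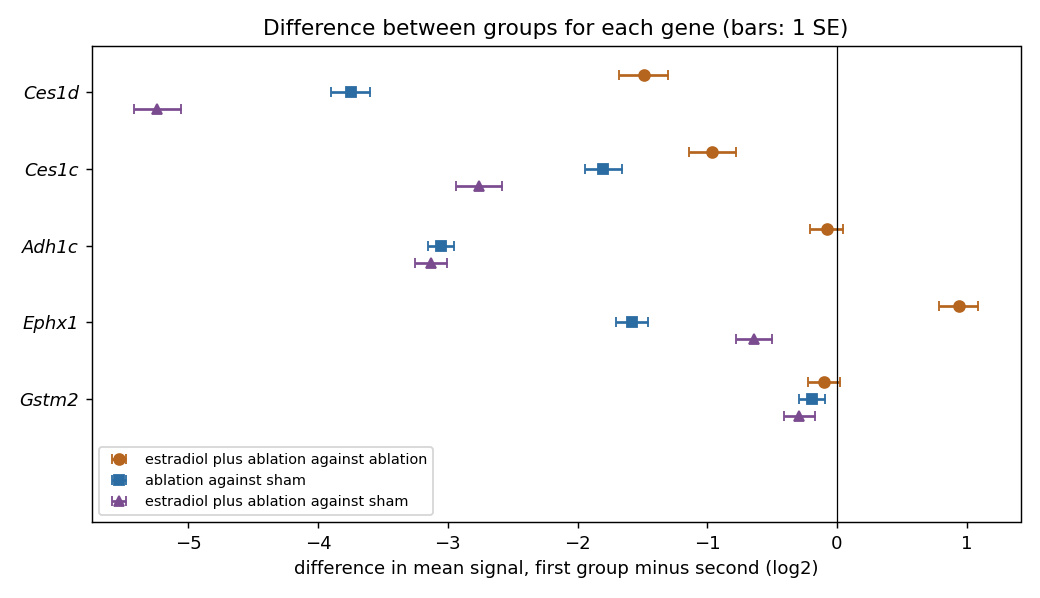
Difference in mean log2 signal (horizontal axis, first group minus second) for each gene in 3 comparisons, with bars of 1 SE. Ces1d and Ces1c lie left of 0 in all 3, Adh1c lies at -3.05 and -3.13 against sham and at -0.08 against ablation, and Ephx1 lies at 0.94 against ablation. Comparisons share arrays and are not independent.

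The Leydig cell markers were set beside the 5 genes as a description. Members and marker lists were both chosen with earlier results of these data known, so the markers cannot check the cell type of the members. Of 14 markers, 11 fell and 2 rose with ablation against sham (limma), beside 12.8% and 9.24% of genes at 1 probe set per gene. With estradiol plus ablation against ablation 3 fell and none rose, beside 2.73% and 0.729% of genes. The 3 were Insl3, a peptide hormone of Leydig cells (-1.88 ± 0.23, adjusted p = 1.16e-06), Cyp17a1, the 17-alpha-hydroxylase of androgen synthesis (-1.85 ± 0.14, adjusted p = 2.89e-11), and Cyp11a1, which starts steroid synthesis from cholesterol (-0.56 ± 0.13, adjusted p = 0.00529). Ces1d and Ces1c were lower in the same comparison, Adh1c and Gstm2 were not called, and Ephx1 rose. Of the other 3 genes of the 6-gene Leydig cell summary, the cholesterol carrier Star differed by 0.11 ± 0.18, the lipoprotein receptor Scarb1 by -0.15 ± 0.16 and the testosterone-forming Hsd17b3 by 0.14 ± 0.29 (SE, not called). Each of these 6 genes fell with ablation against sham, with log2 differences of -0.86 (Star) to -4.49 (Insl3). The 2 markers that rose with ablation were Hsd3b1 (0.39 ± 0.13) and the luteinising hormone receptor gene Lhcgr (0.35 ± 0.11). The summed signal of the 14 markers ranged over 5.85 to 6.62 in estradiol, 6.10 to 6.50 in ablation and 6.58 to 7.42 in sham arrays (log2 of the sum), and Insl3 averaged below the filter level in estradiol arrays. Which cells held the transcripts of the 5 genes was not measured.

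Markers of other cells were also called with ablation against sham, where 9.24% of genes rose and 12.8% fell at 1 probe set per gene. No test was run on these lists. Counts of 1 or 2 genes in a short list are not read as a change of a cell type. Each summed signal here and below covers all markers of a list with a probe set, kept or not. Where some failed the filter, the sums thus cover 13 Sertoli cell, 7 adipocyte and 5 liver markers. Of 10 macrophage markers 8 fell (summed log2 signal 3.93 to 4.26 in estradiol, 3.88 to 4.34 in ablation and 4.26 to 4.99 in sham arrays), and of 7 fibroblast and matrix markers 4 fell (3.86 to 4.24 in estradiol, 3.96 to 4.48 in ablation and 4.91 to 5.40 in sham arrays). Of 10 epididymis and efferent duct markers only 4 had a probe set, and 2 of these fell, Defb24 (-3.03 ± 0.13) and Aqp9 (-1.25 ± 0.10). The 4 summed to 0.63 to 1.21 in estradiol, 0.53 to 1.15 in ablation and 2.53 to 2.90 in sham arrays. Adam7 was below the filter level in all groups, and Ces5a in estradiol and ablation arrays. Of 7 smooth muscle markers 4 fell (3.47 to 3.82 in estradiol, 3.26 to 4.02 in ablation and 3.59 to 4.57 in sham arrays). Of 11 Sertoli cell markers 6 rose and 1 fell (6.79 to 7.66 in estradiol, 7.36 to 7.75 in ablation and 6.61 to 7.73 in sham arrays), and Amh and Rhox5 were below the filter level in all groups. Of 9 endothelial markers 2 fell (2.38 to 2.72 in estradiol, 2.22 to 2.59 in ablation and 2.38 to 2.82 in sham arrays), with Flt1 below the filter level in all groups. Of 4 adipocyte markers with a kept probe set 1 fell, namely Cfd. It averaged 0.59 ± 0.24 in estradiol, 0.24 ± 0.25 in ablation and 0.91 ± 0.33 in sham arrays (SD). All 7 with a probe set summed to 1.06 to 1.64 in estradiol, 0.90 to 1.60 in ablation and 1.22 to 1.92 in sham arrays. Plin4 averaged -1.39 in estradiol, -1.35 in ablation and -1.39 in sham arrays, Adipoq was at -1.73, -1.73 and -1.84 in estradiol, ablation and sham arrays, and Fabp4, Cidec and Lep were below the filter level in all groups. None of 3 liver markers was called (0.04 to 0.63 in estradiol, -0.21 to 0.51 in ablation and -0.14 to 0.48 in sham arrays), with Ttr at -1.32 in estradiol, -1.56 in ablation and -1.33 in sham arrays, Serpina1 at -1.73, -1.67 and -1.70 in the same groups, and Alb, Apoa1 and Fgb below the filter level in all groups. None of 3 red blood cell markers was called (2.52 to 3.70 in estradiol, 2.71 to 4.09 in ablation and 2.75 to 3.99 in sham arrays).

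Of 6 markers of undifferentiated spermatogonia with a kept probe set 5 rose and none fell with ablation against sham. All 8 with a probe set summed to 2.58 to 3.15 in estradiol, 2.08 to 2.70 in ablation and 1.78 to 2.76 in sham arrays. The 5 that rose were Gfra1 (0.40 ± 0.09), Ret (1.18 ± 0.18), Sall4 (2.01 ± 0.45), Sox3 (0.83 ± 0.12) and Epcam (1.01 ± 0.14). Of these, Ret, Sall4 and Epcam averaged below the filter level in sham arrays. Lin28a and Nanos3 were below it in all groups. Of 5 meiotic and spermatid markers with a kept probe set 1 rose, Sycp3 (0.97 ± 0.29), which averaged below the filter level in sham arrays, as Ldhc did. All 7 with a probe set summed to 0.23 to 0.61 in estradiol, -0.14 to 4.52 in ablation and -0.51 to 6.33 in sham arrays. Prm2, Tnp1 and Tnp2 were below the filter level in all groups.

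Other markers also moved between estradiol plus ablation and ablation, beside Ces1d, Ces1c and Ephx1. At 1 probe set per gene, 0.729% of genes were called higher and 2.73% lower there. Of the 7 fibroblast and matrix markers, Dpt (-1.14 ± 0.15) and Col3a1 (-0.40 ± 0.10) fell and Lum (0.67 ± 0.14) rose. Of the spermatogonial markers Ret (0.81 ± 0.22) and Sox3 (0.61 ± 0.16) rose, and of the epididymis and efferent duct markers Aqp9 (0.41 ± 0.12) rose. The spermatid gene Prm1 fell (-4.59 ± 1.33), averaging -5.01 ± 1.38 in estradiol and -0.43 ± 2.83 in ablation arrays (SD). Its estradiol mean lay below the filter level, and among ablation arrays only replicates 4, 5, 6, 7 and 9 had Prm1 above 0 (log2). No macrophage, endothelial, smooth muscle, Sertoli cell, adipocyte, liver or red blood cell marker was called in this comparison (limma). The part of all these cells in the members' differences was not tested.

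With ablation against sham, the measured relatives Adh5 and Ephx2 differed less than Adh1c and Ephx1 did. In the mu class family the reverse held for Gstm5 (-0.63) and Gstm4 (-0.49), which fell by more than Gstm2 (-0.19). No Ces1 gene besides the members had a kept probe set of 1 gene symbol. These contrasts between genes were not tested. Ces1e, the neighbour of Ces1d on the other side, did not pass the filter, averaging -3.31 in estradiol, -2.93 in ablation and -2.72 in sham arrays, and the probe set of Ces1f carries several gene symbols. Among alcohol dehydrogenases Adh5, the formaldehyde-clearing class III enzyme, averaged 1.39 ± 0.26 in estradiol, 1.2 ± 0.32 in ablation and 1.44 ± 0.18 in sham arrays (SD) and was called in no comparison (ablation against sham -0.24 ± 0.10, limma adjusted p = 0.0953). Adh4, Adh6a and Adh7 did not pass the filter. Ephx2, the soluble epoxide hydrolase, fell with ablation against sham by 0.77 on the log2 scale (adjusted p = 7.7e-07). Against ablation, estradiol plus ablation gave -0.10 ± 0.13 for Ephx2 (adjusted p = 0.786), in contrast to 0.94 ± 0.15 for Ephx1, although the difference between these 2 values was not tested. Ephx4 did not pass the filter.

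Gstm2 lies in a cluster of mu class transferase genes. With ablation against sham, Gstm5 fell by 0.63 (adjusted p = 3.18e-06) and Gstm4 by 0.49 (adjusted p = 0.00237). Gstm1 (-0.08 ± 0.08), Gstm3 (-0.25 ± 0.21) and Gstm7 (0.22 ± 0.09) were not called there. None of these 5 was called for estradiol plus ablation against ablation, and Gstm6l did not pass the filter. Close copies within the Ces1 and Gstm families could share hybridisation on such arrays. Cross-hybridisation was not tested, so the assignment of a signal to one copy is uncertain.

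**Figure D3:**
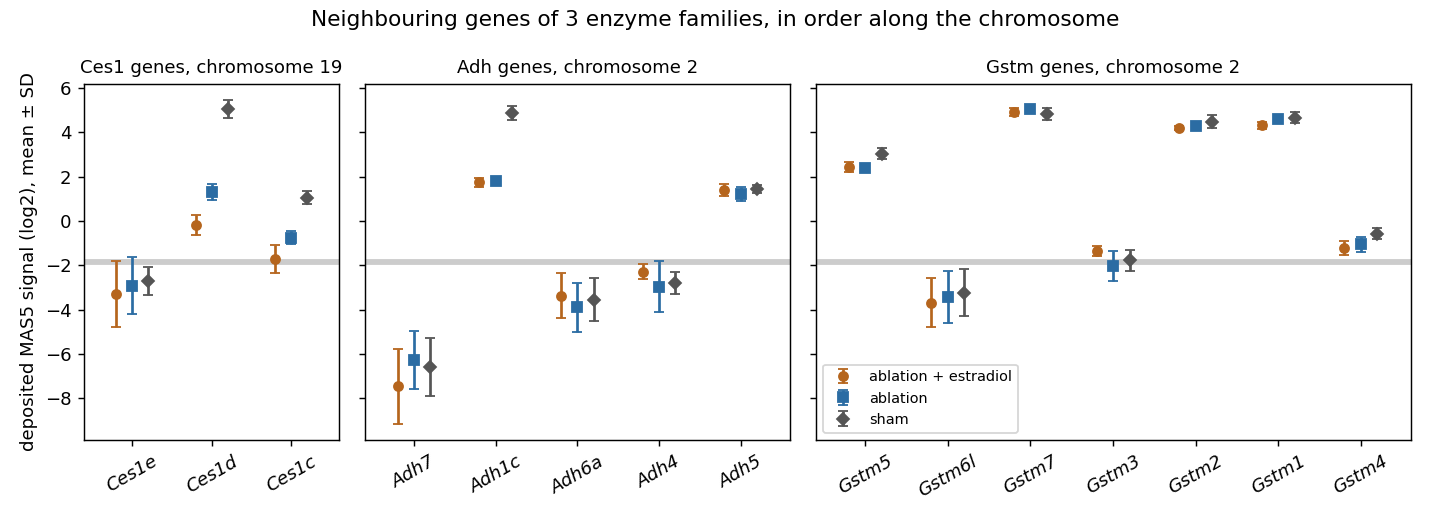
Mean log2 signal ± SD (vertical axis) of genes of the Ces1, Adh and Gstm families in the estradiol plus ablation, ablation and sham groups, in their order along the chromosome, with the filter level in grey. Wide group gaps are seen for Ces1d, Ces1c and Adh1c, while Adh5, Gstm1, Gstm2 and Gstm7 have overlapping means and SDs or small gaps.

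Beyond the families, 9 lists of esterase, oxidation, conjugation and antioxidant genes held 170 other genes with a probe set, of which 128 were tested. With ablation against sham, 7 of these rose and 46 fell (41.4% called, median difference -0.17), beside 22.1% of genes at 1 probe set per gene (9.24% higher and 12.8% lower). With estradiol plus ablation against ablation, 3 rose and 5 fell (6.25%, median -0.01), beside 3.46% of genes (0.729% higher and 2.73% lower). With estradiol plus ablation against sham, 6 rose and 40 fell (35.9%, median -0.18), beside 17.2% of genes (5.28% higher and 11.9% lower). No test was run on the lists, and nothing is read from them beyond these counts. The plot of list counts gives the shares per list.

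**Figure D4:**
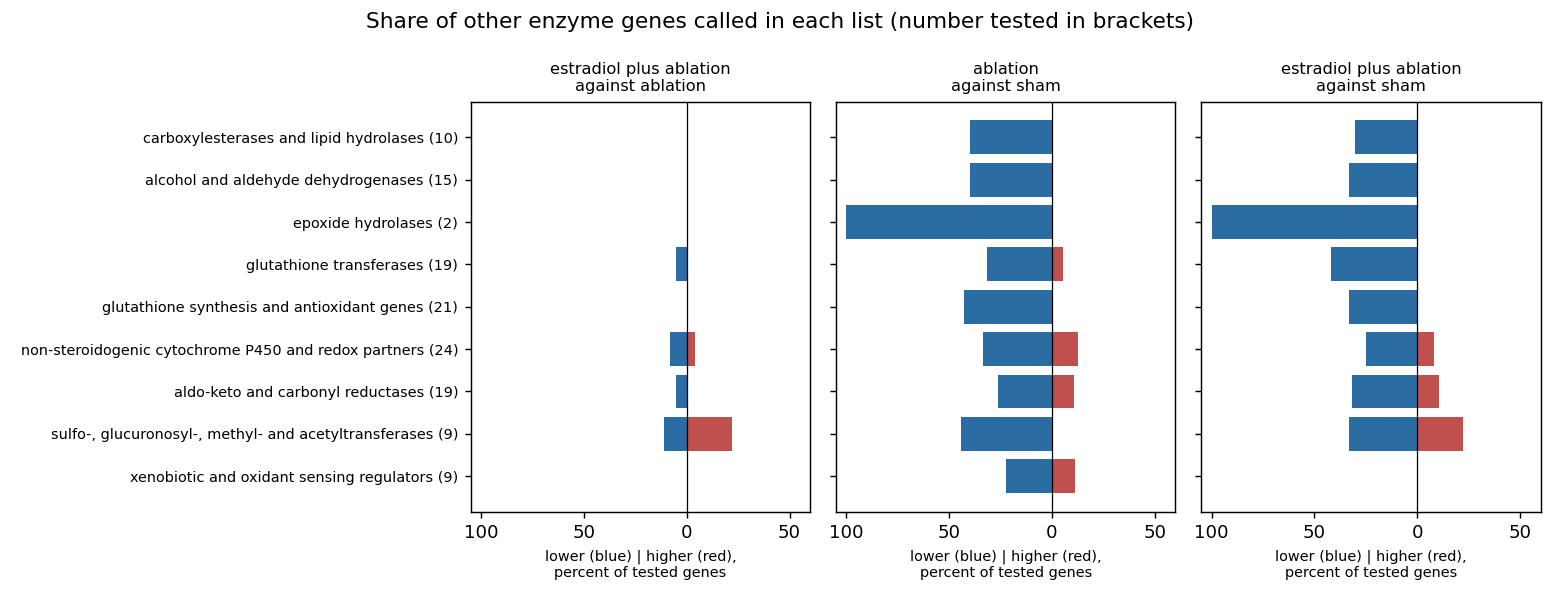
Percent of the tested genes of each enzyme list (the 5 members left out) that were called lower (blue, left) or higher (red, right) in 3 comparisons. For ablation against sham 7 of the 9 lists have only or mostly lower calls at 30% or more of their genes, while for estradiol plus ablation against ablation 5 lists have no call.

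Among esterases and lipid hydrolases, none of 10 rose and 4 fell with ablation against sham. They included the lactonases Pon3 (-0.75 ± 0.15) and Pon2 (-0.48 ± 0.09) and the triglyceride lipase Pnpla2 (-0.50 ± 0.10). With estradiol plus ablation against sham 3 fell, namely Pon3 (-0.84 ± 0.18), Pon2 (-0.34 ± 0.10) and the monoglyceride lipase Mgll (-1.38 ± 0.27). Pon2 lost its call there with the replicate block (-0.22, adjusted p = 0.229), with only the sham arrays described as control (-0.27, adjusted p = 0.0989), and without estradiol replicate 2 (-0.31, adjusted p = 0.0591) or replicate 5 (-0.32, adjusted p = 0.0549). Mgll averaged below the filter level in the estradiol arrays and gave -1.06 with low values raised. No gene of this list was called between the 2 ablated groups, where Ces1d and Ces1c were lower.

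Of 15 alcohol and aldehyde dehydrogenases none rose and 6 fell with ablation against sham, and none was called between estradiol plus ablation and ablation. Mitochondrial Aldh2, which clears acetaldehyde, averaged 2.36 ± 0.19 in estradiol, 2.25 ± 0.21 in ablation and 3.23 ± 0.28 in sham arrays (SD), a difference of -0.98 ± 0.10 for ablation against sham (limma adjusted p = 6.77e-10). Aldh7a1, of lysine breakdown (-0.78 ± 0.09), and Aldh1l1, a folate enzyme (-0.54 ± 0.10), also fell. Both epoxide hydrolase relatives fell with ablation against sham: besides Ephx2, the leukotriene A4 hydrolase Lta4h did so by 0.33 (adjusted p = 0.00825).

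Of 19 other glutathione transferases 1 rose and 6 fell with ablation against sham, and 8 fell with estradiol plus ablation against sham. Microsomal Mgst2 averaged 0.47 ± 0.18 in estradiol, 0.55 ± 0.14 in ablation and 2.01 ± 0.22 in sham arrays (SD), a difference of -1.46 ± 0.08 for ablation against sham (adjusted p = 1.3e-16). Gstk1, of mitochondria and peroxisomes, fell by 0.88. Gsta4, which handles lipid peroxidation aldehydes, fell by 0.63 with estradiol plus ablation against sham. The 1 call between estradiol plus ablation and ablation was Gstt3 (-0.39 ± 0.10, adjusted p = 0.0102), lost with the replicate block (-0.34, adjusted p = 0.105), with array medians subtracted (-0.34, adjusted p = 0.0699) and without the arrays with Prm1 above 0 (-0.40, adjusted p = 0.0619).

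Of 21 glutathione synthesis and antioxidant genes none rose and 9 fell with ablation against sham, and none was called between the 2 ablated groups. Slc7a11, the cystine importer that feeds glutathione synthesis, averaged -0.96 ± 0.28 in estradiol, -0.93 ± 0.27 in ablation and 1.92 ± 0.26 in sham arrays (SD). Its difference for ablation against sham was -2.86 ± 0.11 (7.24-fold, adjusted p = 1.34e-21). Mitochondrial Prdx3 (-1.0 ± 0.11) and catalase, Cat (-0.96 ± 0.17), fell as well, and the peroxidase gene Gpx1 fell by 0.67 with estradiol plus ablation against sham.

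Cytochrome P450 and redox partner genes went both ways. Of 24, 3 rose and 8 fell with ablation against sham, and 1 rose and 2 fell with estradiol plus ablation against ablation. Cyp1b1, which hydroxylates estradiol, averaged 3.11 ± 0.26 in estradiol, 2.52 ± 0.27 in ablation and 3.92 ± 0.26 in sham arrays (SD). It fell with ablation against sham (-1.40 ± 0.10) and rose with estradiol plus ablation against ablation (0.59 ± 0.13, adjusted p = 0.00351), as Ephx1 did, although the second call was lost without the 8 arrays with a log2 signal above 0 for the spermatid protamine gene Prm1 (0.42, adjusted p = 0.145). Cyp2e1, which oxidises ethanol like Adh1c, had the opposite pattern, averaging -0.37 ± 0.20 in estradiol, 0.40 ± 0.26 in ablation and -0.87 ± 0.33 in sham arrays (SD), with a rise of 1.27 ± 0.11 for ablation against sham and a fall of 0.77 for estradiol plus ablation against ablation. Cyp4f4, a fatty acid hydroxylase, fell by 2.43 with ablation against sham (-2.27 with low values raised). It fell by 2.68 with estradiol plus ablation against sham (-2.38 with low values raised). Fmo2, a flavin monooxygenase, fell by 0.48 between estradiol plus ablation and ablation and by 1.19 between estradiol plus ablation and sham, and Cyp4b1 rose by 0.64 in the last.

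Of 19 aldo-keto and carbonyl reductases 2 rose and 5 fell with ablation against sham. The retinal reductase Dhrs4 fell by 1.06 and Dhrs1 by 0.79, and Dhrs1 fell by a further 0.39 between estradiol plus ablation and ablation (adjusted p = 0.0125). Akr7a2, an aldehyde reductase, rose by 0.36 with ablation against sham. Cbr3 was called lower with estradiol plus ablation against sham (-2.63 ± 0.55), but both groups averaged below the filter level and the difference was -0.20 and not called (adjusted p = 0.175) with low values raised.

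Of 9 conjugating transferases 4 fell and none rose with ablation against sham, and 2 rose and 1 fell with estradiol plus ablation against ablation. The phenol sulfotransferase Sult1a1 fell by 0.87 and the acetyltransferase Nat1 by 0.91 with ablation against sham. Sult1c2 averaged -1.13 ± 0.30 in estradiol, -2.21 ± 0.69 in ablation and -1.07 ± 0.20 in sham arrays (SD). It fell with ablation against sham (-1.14, or -0.69 with low values raised) and rose with estradiol plus ablation against ablation (1.08, or 0.63). The indole methyltransferase Inmt rose by 0.96 (adjusted p = 0.000526) and the nicotinamide methyltransferase Nnmt fell by 0.48 (adjusted p = 0.0153) between estradiol plus ablation and ablation, the second lost without estradiol replicate 6 (adjusted p = 0.0843). Inmt rose by 1.03 and Nnmt fell by 0.93 with estradiol plus ablation against sham. Among 9 sensing regulators, Mafk rose by 0.48 and Arnt (-0.61, or -0.49 with low values raised) and Nfe2l2, the antioxidant regulator Nrf2 (-0.28), fell with ablation against sham, and none was called in the other comparisons.

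Within the sham group, the arrays described as irradiated and those described as control did not differ detectably in the 5 genes (limma on 14 arrays). Ephx1 had the largest difference, with a mean of 3.23 ± 0.32 in the 4 arrays described as irradiated and 2.96 ± 0.38 in the 10 described as control (SD), a difference of 0.27 ± 0.20 (SE). The other differences were 0.02 ± 0.23 for Ces1d, 0.10 ± 0.17 for Ces1c, 0.10 ± 0.18 for Adh1c and 0.07 ± 0.18 for Gstm2. The adjusted p was 1.0 for each gene, and 0 of all kept probe sets were called by limma, with 513 (2.41%) at an unadjusted p under 0.05.

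After each group mean was subtracted, the members varied together only in part over the 31 arrays. Deviations of Ces1d correlated with those of Adh1c (r = 0.67), and those of Gstm2 with Adh1c (0.51), Ephx1 (0.47) and Ces1d (0.37). The neighbours Ces1d and Ces1c had r = 0.20, and the other pairs lay between -0.08 and 0.22. These are descriptions over arrays that share RNA quality, scaling and cell makeup. By the same measure, over 11247 genes, the genes most like Ces1d were Igfbp7, Fabp3 and Acsbg1 (0.75 each) and Txn1 (0.70). Most like Adh1c were Glul (0.81), Mgst1 (0.80), Pebp1 (0.79) and Acsbg1 (0.76). Most like Ephx1 were Arf1 (0.87), Smim7, Car11 and Tmem14c (0.86 each), and most like Gstm2 were Rplp0 (0.80), Rpsa (0.73), Gstm7 (0.72) and Timp2 (0.71). For Ces1c the values were lower, with Gmppa, Zfp105 and Ccdc28a at 0.64 and Pcbd2 at 0.63.

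The group differences of these genes varied. Glul, glutamine synthetase, differed by -1.42 between ablation and sham and by -0.27 between estradiol plus ablation and ablation, and Fabp3, a fatty acid carrier, by -1.27 and -0.03. The genes most like Ephx1 had differences between -0.07 and 0.16 for estradiol plus ablation against ablation, where Ephx1 had 0.94.

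Within groups, each member was correlated with the Leydig cell summary and with the mean of 11 Sertoli cell markers, 30 relations in all, tested by permutation. With the Leydig cell summary none passed after adjustment over the 30. The values nearest to it were in ablation arrays, with r = 0.57 for Ces1d (p = 0.0589, adjusted p = 0.295, permutation test) and r = 0.59 for Adh1c (p = 0.0501, adjusted p = 0.295, permutation test). Adh1c correlated with the Sertoli cell markers over the 14 sham arrays (r = 0.79, permutation p = 0.00099, adjusted p = 0.0297), but not by rank (rho = 0.60, permutation p = 0.0263, adjusted p = 0.394). That r was 0.60 without the 2 arrays farthest from the median marker level, 0.90 within the 10 arrays described as control, and -0.13 after quantile normalization, so it did not hold across scalings.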

How the data were processed

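The authors deposited MAS5 signals on a log scale, per the submitters' processing notes, which give neither MAS5 version, scaling nor base. The deposited values (-13.63 to 7.52) were read as log2 and used unchanged, with no pseudocount. Folds rest on that base. Of 31099 probe sets 57 controls were left out. Of the remaining 31042, 20826 had 1 gene symbol, 436 several and 9780 none in the platform annotation, with 20758 updated by Entrez number. Kept were 21269 that exceeded the 40th percentile of their array in at least 6 arrays.

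Groups follow the treatment labels. All 31 arrays (6 estradiol plus ablation, 11 ablation, 14 sham) entered one limma 3.58.1 fit in R 4.3.3 (lmFit, eBayes with trend), with 2-sided p-values adjusted by Benjamini-Hochberg over all kept probe sets. A second limma fit covered the 14 sham arrays. The code was tested on simulated data. The number of arrays limits precision. Correlations used 100000 permutations, or exact pairings for 6 arrays. Promoter windows were aligned with Biopython 1.88.

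The members and all gene lists were chosen with earlier results of these data known. Named are the 5 members, up to 3 called genes with the smallest adjusted p per enzyme list and comparison, the 4 genes most like each member (provisional symbols left out), the Leydig cell summary genes and the Ces1, Adh, Ephx and Gstm families. Markers of other cells, and the 2 Leydig cell markers that rose, were named after their values were seen. The 9 enzyme lists (carboxylesterases and lipid hydrolases, alcohol and aldehyde dehydrogenases, epoxide hydrolases, glutathione transferases, glutathione synthesis and antioxidant genes, cytochrome P450 and redox partners, aldo-keto and carbonyl reductases, conjugating transferases, sensing regulators) were counted without the members. Alternatives were no filter, a stricter filter (60th percentile), array medians subtracted, quantile normalization, no variance trend, the replicate block, only the compared groups, sham arrays of one description, low values raised to the filter level, other probe sets, and each array left out. Added after seeing the data were leaving out the 8 arrays with Prm1 above 0 or 4 arrays (the 2 lowest and 2 highest on principal component 1), and quantile normalization before correlations. Outside the replicate block, replicate numbers were not taken to pair the arrays. Deviations of same-numbered arrays correlated at -0.182 to 0.0594 between estradiol and ablation (0 of 6 over 0.1) and -0.0856 to 0.0467 between ablation and sham (0 of 11). Between estradiol and sham arrays they correlated at -0.0107 to 0.376 (3 of 6), which leaves pairing of these arrays unsettled.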

Additional observations from a re-analysis of the deposited data

Results flagged for a closer look

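Among 11 genes examined in the 6 estradiol arrays (the 5 members and the 6 genes of the Leydig cell summary), 1 value stood far from the others of its group. It was Insl3, with -3.82 (log2) in estradiol replicate 3, set apart by a gap to its neighbour above Dixon's critical value of 0.625 of the group's range. Chance alone gives about 1 such value in 20 groups. The value lies below the filter level.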

How the results depend on the processing

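Of 483 values of the members' differences under alternatives, 481 kept their direction and their side of the threshold or stayed within the spread between arrays. The other 2 were the second Adh1c probe set, at -2.06 for ablation against sham and -2.35 for estradiol plus ablation against sham. Without the 8 arrays with Prm1 above 0, 766 probe sets were called for estradiol plus ablation against ablation, against 1173 with all arrays. When sham was cut to its 4 arrays described as irradiated, 2345 were called for ablation against sham (4128 with all arrays, and 36.4% of calls higher in place of 47.2%), and the count for estradiol plus ablation against sham was 1702 (3093 with all arrays). With the replicate block the counts were 878, 3185 and 2349 in the order estradiol plus ablation against ablation, ablation against sham and estradiol plus ablation against sham, and the called enzyme list genes 8, 42 and 37. With 1 array left out they were 830 to 1205, 3724 to 4455 and 2540 to 3197 probe sets. Of 57 calls of named enzyme genes, 10 were lost in at least 1 alternative. For ablation against sham these were Lta4h (the replicate block, adjusted p = 0.0694, and sham arrays described as control, 0.0539), Nfe2l2 (0.0736 and 0.127 in these, 0.133 without the arrays with Prm1 above 0, and 0.106 without the 4 outer arrays of principal component 1), Arnt (the replicate block, 0.0654) and Akr7a2 (0.0991 with sham arrays described as irradiated, and 0.0924 without the arrays with Prm1 above 0). For estradiol plus ablation against sham, Lta4h was lost with the replicate block (0.132), Pon2 without the 4 outer arrays (0.0518) and in the settings given above, and Cbr3 with sham arrays described as irradiated (0.0852) and with values below the filter level raised to it (0.175). Between estradiol plus ablation and ablation, Gstt3, Cyp1b1 and Nnmt lost calls as given above. No log2 difference between treatments changed sign for a member or a named enzyme gene, and the uncalled difference of Gstm2 between sham descriptions did (-0.02 after quantile normalization, 0.07 otherwise). The causes were not tested.

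Depth has no meaning for arrays. Signals near or below the filter level, as for Ces1c in estradiol arrays, limit what can be read. The base of the logarithm, the deposit that holds all estradiol arrays, and the cell types that carry these transcripts were not settled by these data.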

Other observations

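Besides Adh1c in sham arrays, 2 relations with the mean of the Sertoli cell markers came near the threshold and moved with the scaling. Ces1d over the 14 sham arrays had r = 0.70 (permutation p = 0.00597, adjusted p = 0.0738 over 30 relations) and rho = 0.56 (permutation p = 0.0415, adjusted p = 0.415). Its r was 0.61 without the 2 arrays farthest from the median marker level, 0.76 within the 10 arrays described as control, and 0.20 after quantile normalization. Ephx1 over the 11 ablation arrays had r = 0.75 (permutation p = 0.00738, adjusted p = 0.0738) and rho = 0.75 (permutation p = 0.0112, adjusted p = 0.336), with r = 0.57 without the 2 farthest arrays and 0.17 after quantile normalization. In sham replicates 1 and 5, where Ces1d and Adh1c were lowest, Ces1c had 1.27 and 1.25 and Ephx1 3.41 and 3.21 (log2), above the sham means of both genes (1.05 and 3.04).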
